A study of Mus musculus with 28 samples.

Results

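Bone marrow-derived dendritic cells were compared late and earlier in their answer to lipopolysaccharide (LPS), the outer-membrane glycolipid of Gram-negative bacteria. The comparison took the 4 RNA libraries of 9 h and 12 h with LPS, 2 per time, against the 4 libraries of 4 h and 6 h with LPS, 2 per time. These 8 libraries are among 26 RNA libraries and 28 samples in the series, and all 3147 genes of the RNA table were tested. Cells had been grown from the bone marrow of female C57BL/6J mice aged 6 to 8 weeks in medium with GM-CSF at 20 ng/ml. They were stimulated on day 9 with LPS of an E. coli K12 strain at 100 ng/ml or received a mock stimulus, which was no stimulation. All cells, mock included, had their M-labeled SILAC medium, which carries isotope-labelled amino acids, exchanged for H-labeled medium at 0 h, so the exchange is common to every group. Aliquots were also mixed with unlabelled cells as a standard, and the design text does not say whether RNA was taken before that mixing. The 8 mock libraries of the same hours, 4 of 9 h and 12 h and 4 of 4 h and 6 h, were the controls. Nothing in the labels tells if the pair of replicates came from separate cultures. A p-value therefore reflects how far these libraries scatter, which may be technical.

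Dendritic cells sense LPS through Toll-like receptor 4, which signals through NF-kB and, by a second adaptor, through interferon regulatory factors. The first arm turns on cytokines and their feedback inhibitors, and the second makes the cells secrete type I interferon, which acts back on them and switches on antiviral genes. Matured cells stop taking up antigen, present what they have taken up, and turn their metabolism towards glycolysis. The comparison asks which of these responses had waned, which held and which were still growing once the first wave was over.

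Values are TPM, a transcript abundance corrected for length and scaled to a fixed total. They sum to 1000000 over the listed genes in every library. TPM hold no read depth, so the precision of a value is known from the spread between libraries alone. Changes are differences of log2(TPM + 1) between the mean of 9 h and 12 h and the mean of 4 h and 6 h, with moderated standard errors (SE) from limma. Where 4 values follow each other, those called late are replicates 1 and 2 of 9 h and then of 12 h, and those called earlier are replicates 1 and 2 of 4 h and then of 6 h. The log2 scale understates the changes of weakly expressed genes. A gene is said to have risen or fallen where the limma p-value, adjusted over all 3147 genes by the Benjamini-Hochberg method, was under 0.05. The response of a gene is its LPS minus mock difference averaged over 4, 6, 9 and 12 h.

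The dendritic cell markers listed for this check had 7 members among the listed genes, which include the invariant chain Cd74, the integrin Itgax and the GM-CSF receptor chain Csf2ra, and their summed level was 12903 to 23047 TPM in the late and 13178 to 21224 TPM in the earlier LPS libraries. Of the 7 measured granulocyte markers none passed the test in either direction, and Mpo, a granule enzyme of their precursors, was at 1.25 to 3.99 TPM late and 3.34 to 6.90 TPM earlier. Their sum was 1165 to 2333 TPM at 9 h and 12 h and 1997 to 4740 TPM at 4 h and 6 h; the most abundant of them in the earlier libraries, S100a8 and S100a9, spanned 252 to 756 and 404 to 775 TPM late and 665 to 1700 and 880 to 1840 TPM earlier. The part of these cells in the results was not tested. In a bulk library fewer cells of a type and less RNA per cell cannot be told apart. No marker of T, B, NK, mast, erythroid or stromal cells is among the listed genes. The lowest correlation of a library with any of the other 7 was 0.905 on the log2 scale. The levels of GC-rich genes differed between libraries, with a slope from -0.22 to 0.14 log2 units per 10 percentage points of GC content, and were highest in the replicate 1 library of 12 h.

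Late in the response 236 genes had risen and 214 had fallen, which is 7.5% and 6.8% of the genes tested. Of these, 73 rose and 48 fell by at least 2-fold. The median change over all genes was -0.03 and the median SE 0.22 on the log2 scale. In mock cells over the same hours 0 genes rose and 0 fell (0% in each direction, limma), and 12 and 40 had an unadjusted p under 0.05. The change in LPS cells exceeded that in mock cells for 83 genes and was below it for 42 by the test of the difference itself, or 2.64% and 1.33%. Without replicate 1 or 2 of 6 h the falls numbered 120 and 125, and without replicate 2 of 4 h 142. Without both 12 h libraries 56 rose and 42 fell, and without both 4 h libraries 106 and 67. Without replicate 1 of 4 h in mock, the genes whose LPS change exceeded the mock change numbered 54. Those below it numbered 18 to 26 without any 1 of 11 libraries, which were both LPS libraries of 4 h and of 6 h, both mock libraries of 4 h, of 9 h and of 12 h, and replicate 2 of 6 h in mock. The genes that rose had a median GC content of 53.4%, those that fell 48.5% and all tested 49.9%. With trends over GC content and length removed within each library, 217 rose and 219 fell, and 185 and 162 of these were among the genes above. A fit to the 8 LPS libraries alone, which has fewer degrees of freedom, left 68 rises and 39 falls.

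Few genes passed the test in single steps. Between 4 h and 6 h 2 genes rose and 9 fell (0.0636% and 0.286%), between 6 h and 9 h 8 rose and 0 fell (0.254% and 0%), and between 9 h and 12 h 6 rose and 0 fell (0.191% and 0%), with 124 and 76 falls at an unadjusted p under 0.05 in the later steps. Single steps rest on 2 libraries against 2, and their counts moved with single libraries. No gene was called between 4 h and 6 h without any 1 of their 4 libraries. Calls between 6 h and 9 h numbered 5 and 2 without replicate 1 and 2 of 6 h, and 14 and 3 without replicate 1 and 2 of 9 h. Calls between 9 h and 12 h numbered 12 and 0 without replicate 1 and 2 of 9 h and 0 without replicate 1 of 12 h. The 8 genes that rose between 6 h and 9 h included Sephs2, which makes the selenium donor for selenoproteins, at 1.66, the lysosomal phospholipase gene Pla2g15 at 1.51, the linker histone gene Hist1h1c at 1.31, the lysosomal cholesterol exporter Npc1 at 1.05 and the lipid phosphatase gene Inpp5d at 0.94 on the log2 scale. The 6 that rose between 9 h and 12 h included Selenbp1, which codes for a selenium-binding protein, at 2.43, the glycolytic enzyme gene Tpi1 at 1.22 and the receptor adaptor gene Arrb1 at 1.64.

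At 4 to 12 h 495 genes were above mock and 1681 below it (15.7% and 53.4%), and 242 were induced and 587 repressed at least 2-fold; these are called responders. TPM is a share of the listed transcripts, and the median gene lay 0.45 below mock on the log2 scale. After median-ratio rescaling, which sets that median near 0 (-0.04), 854 genes were above and 889 below mock, with 374 induced and 273 repressed responders, so that split moves with the scaling. The rises and falls between the LPS times numbered 239 and 217 after rescaling, of which 233 and 201 were among the genes above. Responders were sorted by their change between the LPS times, and the mock change did not enter this sorting. Induced genes waned where they fell and grew where they rose. Repressed genes recovered where they rose and deepened where they fell. A responder without a call held where the 95% interval of its change lay within 2-fold, and was undecided otherwise.

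Of the 242 induced genes, 122 held (50.4%), 25 waned (10.3%), 19 grew (7.85%) and 76 were undecided (31.4%). Of the 587 repressed genes, 312 held (53.2%), 67 recovered (11.4%), 69 deepened (11.8%) and 139 were undecided (23.7%). Fewer passed the test of the difference from the mock change. By it 9 of 25 waned and 18 of 69 deepened genes were lower, against 1.33% of all genes. Likewise 7 of 19 grown and 22 of 67 recovered genes were higher, against 2.64% of all genes. The classes were drawn on the LPS change, which is part of this difference, so an excess over all genes follows in part from how they were drawn. Of the 180 genes that waned, grew, recovered or deepened, 121 were in the same class after median-ratio rescaling. Leaving out replicate 2 of 4 h or of 6 h gave 16 waned genes, and leaving out replicate 1 of 6 h gave 12 grown, 41 deepened and 209 undecided repressed genes, with 214 of these last without replicate 1 of 4 h. Most genes that waned or recovered still differed from mock. Of the waned genes 23 of 25 were still called above mock at 9-12 h, where 13.7% of all genes were above and 40.2% below. Of the recovered genes 61 of 67 were still called below mock at 9-12 h, or 42 of 67 after rescaling. The 9 h and 12 h libraries are part of the response by which these genes were chosen. These counts therefore follow in part from that choice. At 4-6 h 12.7% of all genes were above mock and 42.3% below. The waned genes had a median LPS minus mock difference of 1.40 at 9-12 h and 2.37 at 4-6 h on the log2 scale, and the grown genes one of 2.59 at 9-12 h and 1.69 at 4-6 h. The recovered genes had -1.07 at 9-12 h and -2.0 at 4-6 h, and the deepened genes -1.93 at 9-12 h and -1.08 at 4-6 h. These medians follow from how the classes were drawn. In mock cells the median change of each of the 4 classes was between -0.02 and 0.00.

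**Figure D1:**
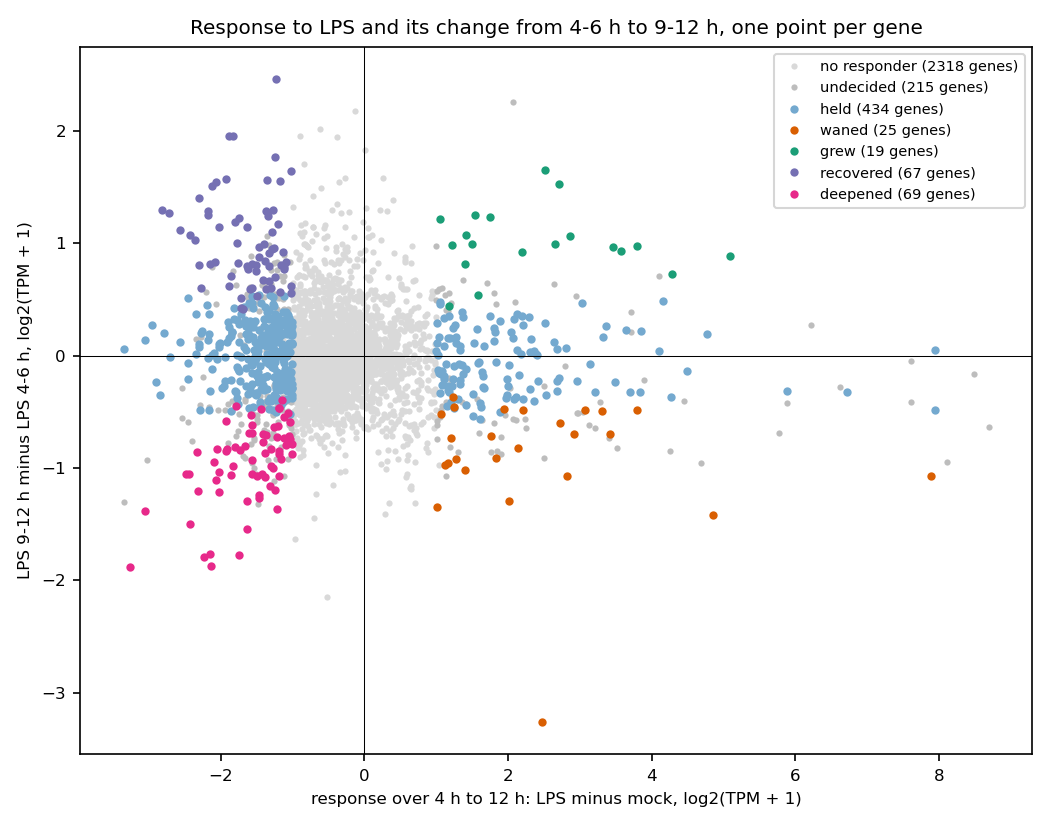
Response over 4 h to 12 h (LPS minus mock, x axis) against the change from 4-6 h to 9-12 h in LPS cells (y axis), both in log2(TPM + 1), with 1 point per gene and colours for the classes of responders. The 25 waned genes lie at the lower right, led by Serpinb2 at -3.26, and the 67 recovered genes at the upper left, led by Fblim1 at 2.46.

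Among induced genes the steepest fall was that of Serpinb2, an inhibitor of urokinase-type plasminogen activator. Its level was 23.5, 3.64, 14.5 and 3.93 TPM late, against 209, 109, 82.6 and 37.2 TPM earlier, with no overlap, and 1.98 to 7.90 TPM in the 8 mock libraries. Its change was -3.26 ± 0.50 (log2, SE, adjusted p = 3.6e-04), and at 12 h its LPS libraries overlapped those of mock. Sap30, a subunit of a histone deacetylase complex, was at 143, 71, 118 and 63.5 TPM late, against 270.3, 208, 234 and 214 TPM earlier, a change of -1.29 ± 0.24 (log2, SE, adjusted p = 0.0017). Marcksl1, an actin-binding substrate of protein kinase C, was at 1148, 1096, 775 and 789.6 TPM late, against 2221, 2182, 1851 and 1681 TPM earlier, and changed by -1.07 ± 0.21 (log2, SE, adjusted p = 0.0026). Nlrp3, the sensor of an inflammasome, changed by -0.92 on the log2 scale and was at 113, 115, 118 and 92.4 TPM late, against 299.9, 222, 176 and 155 TPM earlier. Lnp, an endoplasmic reticulum protein, changed by -1.35 ± 0.19 (log2, SE, adjusted p = 1.3e-04). For each of these 5 genes the 4 late libraries were all below the 4 earlier ones, which was a condition of the rule that named them, except for Nlrp3, chosen after its values were seen. The LPS groups did not overlap, in either direction, for 14% of all genes tested and for 65.9% of those that fell.

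The fall of Myd88, the adaptor that links Toll-like receptors to NF-kB, was -1.18 ± 0.29 (log2, SE, adjusted p = 0.011), with 174, 90.4, 119 and 67.5 TPM late, against 265, 209.5, 279.9 and 224 TPM earlier. Its response over all 4 times, 0.65, was below the 2-fold mark, and its call ended without replicate 1 of 6 h (adjusted p = 0.0516), replicate 2 of 9 h (adjusted p = 0.0551) or replicate 2 of 12 h (adjusted p = 0.0557). In the list of 25 measured genes of NF-kB and Toll-like receptor signalling it was the 1 that fell, and Card9, an adaptor of C-type lectin receptors, the 1 that rose, by 0.80; that is 4% in each direction, against 7.5% that rose and 6.8% that fell of all genes. The coreceptor Cd14 was at 725, 322, 727 and 362 TPM late, against 1595, 745, 1025 and 571 TPM earlier, and did not pass the test (limma, adjusted p = 0.41). Replicate 1 was above replicate 2 at every hour, and the fit had no replicate term. Within each replicate number both late values of Cd14 were below both earlier ones. C5ar1, the receptor for complement fragment C5a, had no 2-fold response, and was at 6.05, 13.5, 3.46 and 4.98 TPM late, against 46.5, 76.8, 13.8 and 18.3 TPM earlier. Its change in LPS cells was -2.15 ± 0.24 (log2, SE, adjusted p = 2.5e-05), that in mock cells was -0.86 ± 0.24, which did not pass the test, and the difference of the changes was -1.29 ± 0.34 (SE, adjusted p = 0.038).

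All 39 measured genes of the type I interferon response were induced at least 2-fold, against 242 of all 3147 genes. The list holds 67 names and was chosen with earlier results of these data known, so this count is a description. Their median response was 3.27 on the log2 scale, and 27 of 39 were lower at 9-12 h, with a median change of -0.33 against -0.03 over all genes tested. In this list 8 genes waned, 14 held, 2 grew and 15 were undecided, where 10.3%, 50.4%, 7.85% and 31.4% of all induced genes fell in these classes. By the test of the difference from the mock change, 2 of the 39 were lower, Ifih1 and Pnpt1, and 0 higher. Of all genes 1.33% were lower and 2.64% higher by that test. The 8 falls are 20.5% of the list and the 2 rises 5.13%, against 6.8% and 7.5% of all genes. The falls numbered 5 without replicate 2 of 4 h or of 6 h, 2 without the 12 h libraries, and 4 after quantile normalization or in the fit to the 8 LPS libraries alone. The list's median LPS minus mock difference was 0.48, 1.83, 3.42, 3.38, 3.22 and 2.89, at 1, 2, 4, 6, 9 and 12 h in that order, so it was highest at 4 h and lower at each later time. The 2 libraries of a time and 39 correlated genes do not make a test of that median.

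The waned members included sensors and effectors of antiviral defence. Ifih1, the cytosolic sensor of long double-stranded RNA known as MDA5, was at 285, 197, 189 and 155 TPM late, against 567, 582, 507 and 508 TPM earlier. All 4 late libraries were below the lowest of the earlier ones, a condition of the rule that named it. The change was -1.42 ± 0.20 (log2, SE, adjusted p = 1.4e-04), and mock libraries held 6.84 to 13.3 TPM. Ddx58, the sensor of 5' triphosphate RNA known as RIG-I, changed by -0.49 ± 0.14 (log2, SE, adjusted p = 0.028). Ifit1, which binds viral RNA that lacks cap methylation, was at 1575, 1598, 1250.3 and 1671 TPM late, against 2752, 3916, 2955 and 3218 TPM earlier, a change of -1.07 ± 0.28 (log2, SE, adjusted p = 0.016). Mock libraries held 5.01 to 13.8 TPM, so Ifit1 was still far above them at 9-12 h. Pnpt1, a mitochondrial RNA exonuclease, changed by -0.95, the histone chaperone Daxx by -0.69, the ADP-ribosyltransferases Parp9 and Parp14 by -0.60 and -0.49, and Tor3a by -0.48 on the log2 scale. The calls of Ifih1, Daxx, Parp9, Pnpt1 and Tor3a held without any 1 of the 8 libraries. Those of Parp9, Pnpt1 and Tor3a ended without both 12 h libraries and in the fit to the 8 LPS libraries alone. The call of Tor3a also ended without both 6 h libraries. That of Ifit1 ended without replicate 2 of 4 h (adjusted p = 0.0687), replicate 2 of 6 h (adjusted p = 0.0531) or replicate 1 of 12 h (adjusted p = 0.0639). Those of Ddx58 and Parp14 each ended without any of 6 libraries, with adjusted p up to 0.116 for Ddx58 and up to 0.0926 for Parp14. Those 6 were replicate 2 of 4 h, replicate 2 of 6 h, both of 9 h and both of 12 h for Ddx58, and replicate 2 of 4 h, both of 6 h, both of 9 h and replicate 2 of 12 h for Parp14.

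The 2 members that grew were Bst2, or tetherin, which holds budding virions at the cell surface, and Oas3, which makes the 2',5'-oligoadenylates that activate RNase L. Bst2 was at 2985, 5415, 4008 and 5948 TPM late, against 1499, 2019, 2466 and 3283 TPM earlier, a change of 0.99 ± 0.24 (log2, SE, adjusted p = 0.01). Its groups overlapped, since replicate 2 of 6 h lay above replicate 1 of 9 h. Oas3 was at 411, 398, 414 and 357 TPM late, against 198, 160.1, 316 and 316 TPM earlier, with no overlap and a change of 0.73 ± 0.20 (log2, SE, adjusted p = 0.023). The call of Bst2 ended without replicate 1 of 6 h (adjusted p = 0.0541) or replicate 2 of 9 h (adjusted p = 0.0519), and that of Oas3 without replicate 2 of 4 h, either of 6 h, replicate 1 of 9 h or replicate 1 of 12 h (adjusted p up to 0.0879).

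Promoters of 4 interferon response genes in which the core of the interferon response element was found are shown. They were picked because they match, so they say nothing about how often a class holds it. Bases upstream of the annotated start are printed 5' to 3' on the gene's strand from RefSeq's promoter table of GRCm38.p6, with matches to the core GAAANNGAA on either strand in capitals, overlapping matches merged into 1 run. Ifih1 and Ifit1 waned, Isg15 held and Oas3 grew.
Ifih1: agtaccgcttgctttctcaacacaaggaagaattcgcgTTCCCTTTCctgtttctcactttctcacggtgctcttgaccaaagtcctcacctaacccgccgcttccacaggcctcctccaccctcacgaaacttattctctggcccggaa
Ifit1: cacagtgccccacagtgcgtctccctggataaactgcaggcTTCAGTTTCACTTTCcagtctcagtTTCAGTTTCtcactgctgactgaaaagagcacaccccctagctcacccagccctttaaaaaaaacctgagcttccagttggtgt
Isg15: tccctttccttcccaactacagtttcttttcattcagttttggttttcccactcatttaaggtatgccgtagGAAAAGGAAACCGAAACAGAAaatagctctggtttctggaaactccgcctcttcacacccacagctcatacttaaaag
Oas3: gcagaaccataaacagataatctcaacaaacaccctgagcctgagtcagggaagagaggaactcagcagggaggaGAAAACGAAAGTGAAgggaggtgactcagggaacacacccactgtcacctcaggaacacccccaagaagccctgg

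The Ifih1 stretch is at chr2:62646256-62646405 (minus strand), that of Ifit1 at chr19:34640739-34640888 (plus strand), that of Isg15 at chr4:156200819-156200968 (minus strand) and that of Oas3 at chr5:120777660-120777809 (minus strand). The core was found once in Ifih1, 3 times in Ifit1 and Isg15 and 2 times in Oas3 within these 150 bases. Within 250 bases upstream it was found in 38.2% of the 34 interferon response genes with a promoter in the table and in 7.16% of all 27025 first-listed promoters. Since under 80% of the waned and of the grown genes had a promoter in the table, shares by class are not given for induced genes. A match describes the letters and is not a binding site.

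Responses that held included some of the strongest. Oasl1, a member of the oligoadenylate synthetase-like family that restrains Irf7 translation, was at 1649, 1228, 1703 and 1298 TPM late, against 1704, 1302, 1454 and 1191 TPM earlier, and 1.37 to 10.5 TPM in mock cells, a response of 7.95 with a change of 0.06 (95% interval -0.69 to 0.80). Isg15, a ubiquitin-like modifier, was at 6757, 6829, 6218 and 7098 TPM late, against 6589, 8843, 8551 and 10107 TPM earlier, with a response of 6.72 and a change of -0.33 (95% interval -0.82 to 0.17). Ifit2, a relative of Ifit1, had a response of 7.94 and a change of -0.48 (95% interval -0.98 to 0.02), and its 4 late libraries were all below the earlier ones without passing the test (adjusted p = 0.21). Irg1, which makes the antibacterial metabolite itaconate, was at 5170.3, 2722, 4556 and 3081 TPM late, against 5361, 3976, 5324 and 4130.1 TPM earlier, with a change of -0.31 (95% interval -0.99 to 0.36). Gbp2 and Gbp3 of the interferon-inducible GTPases, which attack vacuoles of intracellular microbes, also held, and of that list's 8 members none passed the test (limma, median change -0.36). Stat2, which carries the interferon signal to the nucleus, changed by -0.08 (95% interval -0.44 to 0.29). In antigen presentation through MHC class I, 7 of 13 genes were induced and held, against 122 of all 3147 genes. Among the 7 were the peptide transporter genes Tap1 and Tap2 and the immunoproteasome subunit gene Psmb9. The light chain gene B2m, which had a smaller response (0.67), was the 1 of the 13 that rose (7.69%, against 7.5% of all genes), with 12189, 12846, 12110.5 and 13516 TPM late, against 7637, 6486, 8879.6 and 9274 TPM earlier, a change of 0.66 ± 0.11 (log2, SE, adjusted p = 9.1e-04).

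The interleukin-1 cytokines were in the undecided class. Il1b, the inflammasome-processed cytokine, was at 9170, 4141, 7473 and 5019 TPM late, against 9217, 6639, 10207 and 7374 TPM earlier, a change of -0.42 (95% interval -1.31 to 0.47) after a response of 5.88. Il1a was at 4288, 1173, 3019.7 and 1669 TPM late, against 4398, 2357, 4624 and 3554 TPM earlier. For both genes replicate 1 was above replicate 2 at each of the 4 hours. Within each replicate number both late values were below both earlier ones, and the fit had no replicate term. Il1rn, the receptor antagonist that opposes both, held, with a change of -0.22 (95% interval -0.98 to 0.53). Ptgs2, the inducible cyclooxygenase gene, was at 513, 152, 662 and 231 TPM late, against 298, 217, 402 and 215 TPM earlier, and Cd40, the costimulatory receptor gene, at 1458, 882, 1059.9 and 695 TPM late, against 1265, 1009, 1729.8 and 1344 TPM earlier, both without a call.

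Among the induced genes that still grew, Car2, which codes for a carbonic anhydrase, was at 155, 117, 218 and 252 TPM late, against 68.2, 36.3, 69.5 and 56.7 TPM earlier, and 12.4 to 25.6 TPM in mock cells. The late libraries were all above the earlier ones, a condition of the rule that named it, and the change was 1.65 ± 0.29 (log2, SE, adjusted p = 0.0011). Of all genes that rose, 68.2% had LPS groups that did not overlap. Il4i1, a secreted oxidase of aromatic amino acids, is listed in 1 row with the readthrough Nup62-il4i1, so their reads cannot be separated; that row was at 381, 233, 467 and 338 TPM late, against 126, 80.3, 135 and 146 TPM earlier, a change of 1.52 ± 0.21 (log2, SE, adjusted p = 1.4e-04). Osbpl3, an oxysterol-binding protein, changed by 1.25 ± 0.14 (log2, SE, adjusted p = 3.1e-05), and Ly9, a homophilic receptor of the SLAM family, by 1.22 ± 0.18 (log2, SE, adjusted p = 2.0e-04). Aldh1a2, the retinal dehydrogenase by which dendritic cells make retinoic acid, was at 380.2, 186, 452 and 296 TPM late, against 126, 112, 213 and 161 TPM earlier, a change of 1.07 ± 0.25 (log2, SE, adjusted p = 0.0089). Acsl1, which activates long-chain fatty acids, was at 969.7, 641, 982 and 702 TPM late, against 359, 344, 563 and 465 TPM earlier, a change of 0.93 ± 0.17 (log2, SE, adjusted p = 0.0016). Sqstm1, the autophagy receptor p62, changed by 0.99, and Ndrg1, a gene known to be induced by hypoxia, by 1.08. For these 8 rows the call held without any 1 of the libraries. Without both 12 h libraries the calls of Car2, Aldh1a2, Sqstm1 and Ndrg1 ended. Those of Aldh1a2 and Acsl1 ended without both 4 h libraries and in the fit to the 8 LPS libraries alone.

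Ccl5, the chemokine RANTES, also grew. It was at 39678, 20330, 43492 and 36943 TPM late, against 15359, 12208, 25371 and 23271 TPM earlier, and 424 to 1233 TPM in mock cells. Its groups overlapped, the change was 0.89 ± 0.28 (log2, SE, adjusted p = 0.043), and the call ended without any 1 of 7 libraries (adjusted p 0.0632 to 0.167), all except replicate 2 of 9 h. Of the acute-phase gene Saa3 and the complement gene Cfb, both of which grew, the changes were 0.98 ± 0.31 (log2, SE, adjusted p = 0.047) and 0.97 ± 0.26 (log2, SE, adjusted p = 0.017). The call of Saa3 ended without any of the 8 libraries (adjusted p up to 0.139), and that of Cfb without replicate 1 of 6 h (adjusted p = 0.058), of 9 h (adjusted p = 0.0805) or of 12 h (adjusted p = 0.0898).

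**Figure D2:**
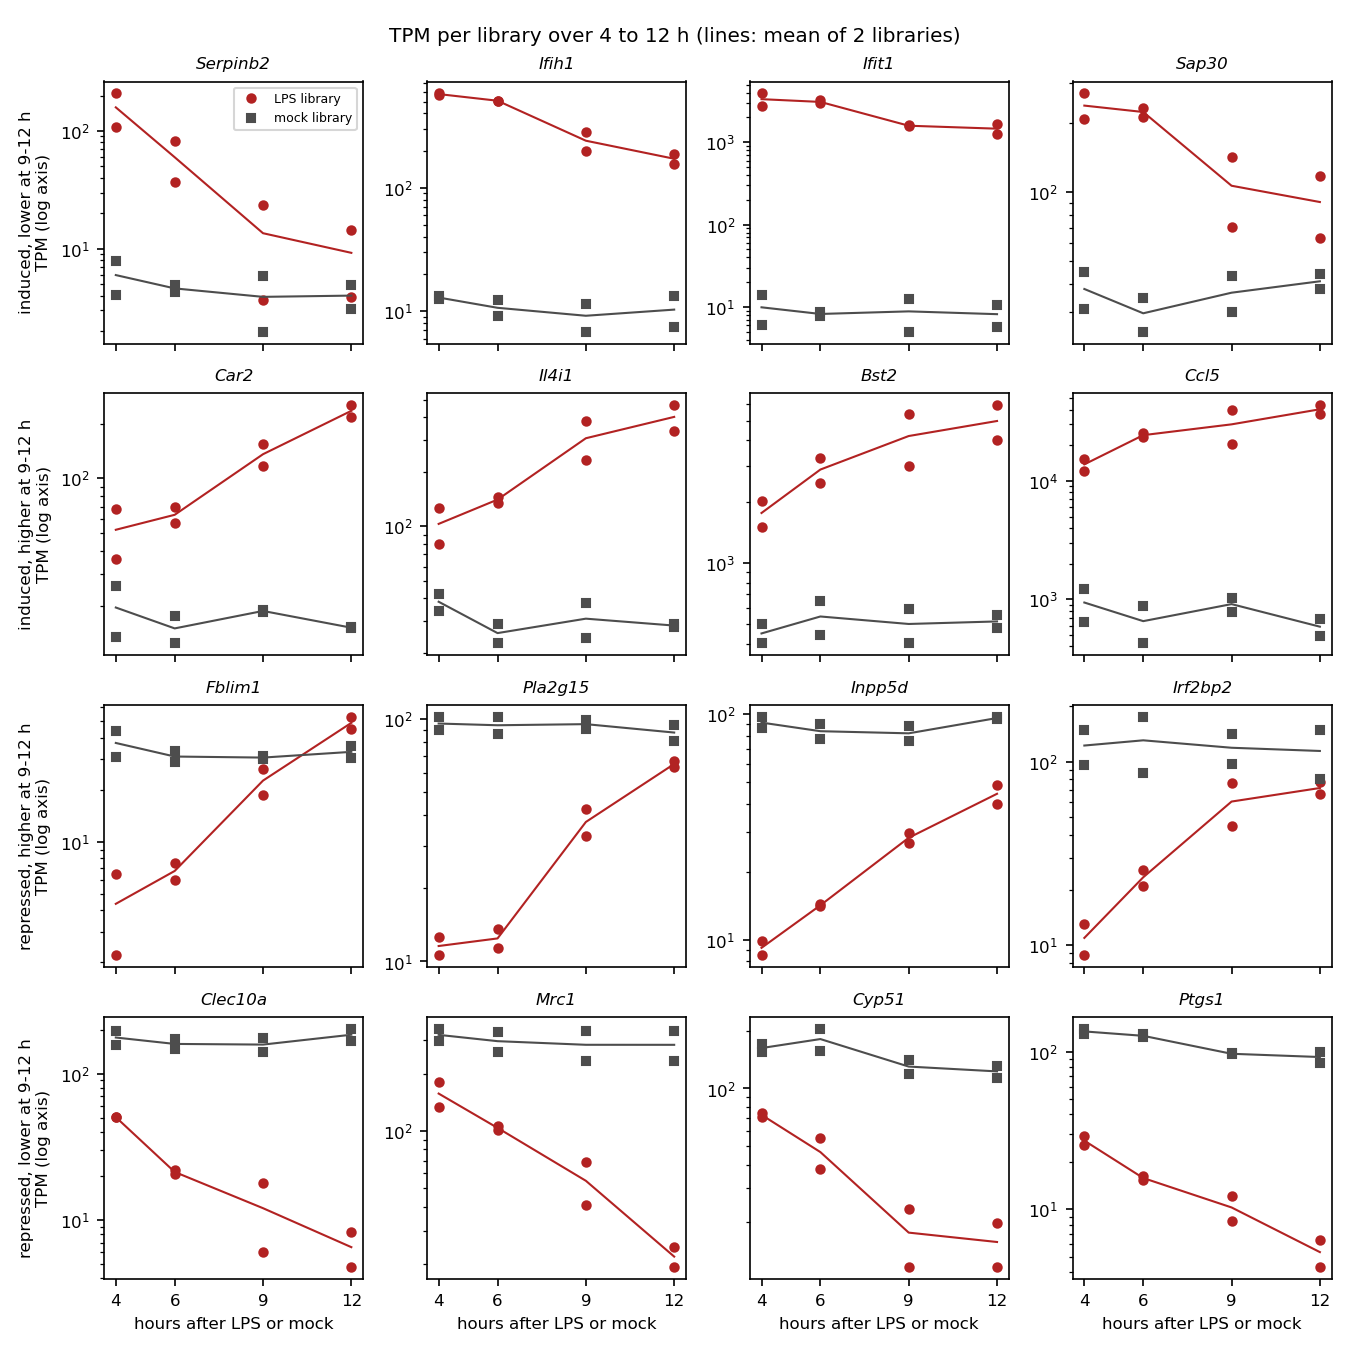
TPM (log axis) per library at 4, 6, 9 and 12 h with LPS or mock for 16 responders, 4 per row: waned, grown, recovered and deepened; lines join the means of the 2 libraries. Ifih1, for example, is at 285, 197, 189 and 155 TPM late, against 567, 582, 507 and 508 TPM earlier, while its mock libraries span 6.84 to 13.3 TPM; the Il4i1 panel is the row shared with Nup62-il4i1.

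Recovery from repression was led by Fblim1, a filamin-binding protein of cell-matrix contacts, at 26.5, 18.7, 52.6 and 44.9 TPM late, against 6.54, 2.20, 5.97 and 7.57 TPM earlier, and 28.8 to 43.5 TPM in mock cells. The change was 2.46 ± 0.24 (log2, SE, adjusted p = 6.7e-06), and at 12 h the LPS libraries were above both mock libraries of that hour. Pla2g15, a lysosomal phospholipase, was at 42.3, 32.8, 67 and 63.4 TPM late, against 10.6, 12.6, 13.6 and 11.3 TPM earlier, a change of 1.96 ± 0.15 (log2, SE, adjusted p = 6.8e-07). Every late library of Pla2g15 was above every earlier one, a condition of the rule that named it, and below every mock one. Irf2bp2, a transcriptional corepressor, was at 44.4, 76.9, 66.4 and 77.3 TPM late, against 8.79, 13.1, 21.1 and 25.7 TPM earlier, a change of 1.96 ± 0.40 (log2, SE, adjusted p = 0.0036). Sephs2 changed by 1.77 ± 0.15 (log2, SE, adjusted p = 1.0e-06), and Ado, which oxidises cysteamine and protein N-terminal cysteines, by 1.64 ± 0.16 (log2, SE, adjusted p = 6.7e-06). Among actin regulators the synaptopodin gene Synpo changed by 1.27 ± 0.19 (log2, SE, adjusted p = 2.5e-04).

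Genes that restrain signalling were also among those that came back. Inpp5d codes for SHIP1, a phosphatase that removes the second messenger of phosphoinositide 3-kinase, and was at 26.8, 29.7, 48.5 and 40.0 TPM late, against 8.51, 9.87, 14.3 and 14 TPM earlier, a change of 1.55 ± 0.11 (log2, SE, adjusted p = 6.8e-07). All late libraries were above the earlier ones and below the mock ones. Tsc22d3, or GILZ, a glucocorticoid-induced inhibitor of NF-kB and AP-1, was at 13.6, 16.2, 30.3 and 42.5 TPM late, against 7.35, 11, 9.07 and 9.43 TPM earlier, a change of 1.26 ± 0.28 (log2, SE, adjusted p = 0.0065). With the phosphatase gene Ptpn1, which rose by 1.08 from a smaller response, they were 3 of 9 measured negative feedback regulators to rise, 33.3% against 7.5% of all genes, and none fell. Tnfaip8l2, or TIPE2, listed here with cell death genes and known to dampen Toll-like and T cell receptor signalling, changed by 1.22 ± 0.27 (log2, SE, adjusted p = 0.006). Dnmt1, the maintenance DNA methyltransferase, changed by 0.95 ± 0.13 (log2, SE, adjusted p = 1.3e-04). For the recovered genes of this and the preceding paragraph the call held without any 1 of the 8 LPS libraries. Without both 12 h libraries the calls of Irf2bp2, Tsc22d3 and Tnfaip8l2 ended, and without both 4 h libraries those of Irf2bp2 and Synpo.

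Repression deepened for the uptake receptor genes Clec10a and Mrc1. Clec10a, a galactose-type lectin, was at 6.06, 18, 4.76 and 8.28 TPM late, against 50.6, 50.2, 20.5 and 22.1 TPM earlier, and 141 to 202 TPM in mock cells, a change of -1.88 ± 0.25 (log2, SE, adjusted p = 1.2e-04). Mrc1, the macrophage mannose receptor, was at 40.6, 68.9, 19.3 and 24.5 TPM late, against 134, 181, 102 and 106 TPM earlier, a change of -1.87 ± 0.19 (log2, SE, adjusted p = 1.1e-05). Both were lowest at 12 h, and both also differed from the mock change, by -1.90 ± 0.36 (SE, adjusted p = 0.0061) and -1.74 ± 0.27 (SE, adjusted p = 0.0018). They were the 2 of 9 measured C-type lectin and Fc receptor genes that fell (22.2%, against 6.8% of all genes), and none of the 9 rose. Mrc1 is also a macrophage marker; the other 3 measured markers of that type, Cd68, Csf1r and Fcgr1, did not pass the test, with changes of -0.12, 0.34 and 0.48.

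The eicosanoid enzyme genes Ptgs1 and Alox5 fell as well. Ptgs1, the constitutive cyclooxygenase gene, was at 8.44, 12.2, 6.42 and 4.31 TPM late, against 29.1, 25.5, 15.3 and 16.3 TPM earlier, a change of -1.38 ± 0.16 (log2, SE, adjusted p = 3.4e-05). Alox5, the 5-lipoxygenase gene, was at 2.10, 4.76, 3.51 and 1.35 TPM late, against 23.3, 21.3, 6.48 and 5.17 TPM earlier, a change of -1.76 ± 0.30 (log2, SE, adjusted p = 8.1e-04). In the list of 21 inflammatory enzymes and mediators 3 genes rose (Cfb, Saa3 and Arg1) and 4 fell (Serpinb2, Alox5, Ptgs1 and the chloride channel gene Clic4), or 14.3% and 19%, against 7.5% and 6.8% of all genes. The median change of the list was 0.11.

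Cholesterol synthesis was the metabolic list with the lowest median. Of 14 measured genes 4 fell (28.6%, against 6.8% of all genes) and none rose, with a median change of -0.49 in LPS cells and -0.19 in mock cells. Without the 4 h libraries the median of the cholesterol synthesis list was -0.22 and 2 fell. Cyp51, the lanosterol demethylase, was at 11.7, 23.6, 11.6 and 19.9 TPM late, against 70.9, 74.7, 38.1 and 54.9 TPM earlier, and 114 to 205 TPM in mock cells, a change of -1.79 ± 0.23 (log2, SE, adjusted p = 8.8e-05). Fdps, which makes farnesyl pyrophosphate, was at 72.6, 43.3, 51.3 and 44.8 TPM late, against 156, 112, 104 and 115 TPM earlier, a change of -1.20 ± 0.26 (log2, SE, adjusted p = 0.0047). Idi1, which isomerises isopentenyl pyrophosphate, changed by -1.04 ± 0.16 (log2, SE, adjusted p = 3.7e-04) without a 2-fold response. Hmgcs1, which makes the precursor of mevalonate, changed by -0.78 ± 0.20 (log2, SE, adjusted p = 0.016), a call that ended without replicate 2 of 4 h (adjusted p = 0.0722), replicate 2 of 6 h (adjusted p = 0.0664), replicate 1 of 9 h (adjusted p = 0.07) or replicate 1 of 12 h (adjusted p = 0.0842). The list's median LPS minus mock difference was lowest at 9 h (-1.68) and less so at 12 h (-1.41).

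Promoters of 4 deepened genes are shown because the CCAAT box, which NF-Y binds, had a higher share in that class than among all measured genes. Several motifs were searched, and this box was picked after the shares were seen. The 4 genes shown all hold a match, so they say nothing about how often the class holds it. Matches to CCAAT on either strand are in capitals, and the table, build and direction are as above.
Cyp51: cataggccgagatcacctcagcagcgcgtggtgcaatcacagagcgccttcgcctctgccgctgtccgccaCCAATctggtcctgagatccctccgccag
Hmgcs1: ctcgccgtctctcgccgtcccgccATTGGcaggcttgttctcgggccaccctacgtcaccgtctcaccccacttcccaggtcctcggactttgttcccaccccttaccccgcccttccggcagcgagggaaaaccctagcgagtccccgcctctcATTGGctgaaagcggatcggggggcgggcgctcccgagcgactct
Cdk1: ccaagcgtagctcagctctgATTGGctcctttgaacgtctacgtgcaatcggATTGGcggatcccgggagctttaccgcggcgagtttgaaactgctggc
Pcna: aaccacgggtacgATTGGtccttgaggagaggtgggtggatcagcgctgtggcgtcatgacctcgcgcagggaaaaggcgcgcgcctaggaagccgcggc

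The Cyp51 stretch is at chr5:4104698-4104797 (minus strand), that of Hmgcs1 at chr13:119690151-119690350 (plus strand), that of Cdk1 at chr10:69352913-69353012 (minus strand) and that of Pcna at chr2:132253181-132253280 (minus strand). Within 250 bases upstream CCAAT was found in 63.3% of the 60 deepened genes with a promoter in the table. Among the other repressed genes it was found in 40.8% of held, 38.6% of recovered and 46.6% of undecided genes. The share was 76.9% of 13 cholesterol synthesis genes, 37.7% of all 2597 measured genes with a promoter and 34.5% of all promoters in the table. The sterol element pattern TCACNCCAC was found in 5% of deepened genes and 1.04% of all promoters, and among the 13 in Hmgcs1 alone. Shares were not tested.

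Of 31 cell cycle genes 25 were repressed, 18 of which held, against 587 repressed of all 3147 genes, of which 53.2% held. The list's median response was -1.43, and -1.05 after median-ratio rescaling, against -0.45 and -0.04 for all genes. Cdk1, the mitotic kinase, was at 21.2, 22.3, 15 and 9.16 TPM late, against 30.3, 32.1, 25.4 and 28.1 TPM earlier, a change of -0.81 ± 0.14 (log2, SE, adjusted p = 0.0011). Pcna, the sliding clamp of DNA polymerase, was at 258, 179, 236 and 166 TPM late, against 428, 352, 314 and 299.5 TPM earlier, a change of -0.74 ± 0.21 (log2, SE, adjusted p = 0.025), and that call ended without replicate 1 of 4 h, either of 6 h, replicate 2 of 9 h or replicate 2 of 12 h (adjusted p up to 0.101). In the list 2 rose and 4 fell (6.45% and 12.9%, against 7.5% and 6.8% of all genes), and the median change was 0.01. Of 29 genes of polyamine, creatine, one-carbon and purine synthesis 7 fell (24.1%, against 6.8% of all genes) and 1 rose, with a median of -0.34. The falls numbered 4 with 5 TPM added, 0 without the 4 h libraries, 1 without the 12 h libraries and 0 in the fit to the 8 LPS libraries alone. They were 3, 4, 2 and 3 without replicate 1 of 4 h, replicate 2 of 4 h, replicate 1 of 6 h and replicate 2 of 12 h. The brain-type creatine kinase gene Ckb was at 74.5, 236, 53 and 101 TPM late, against 359.6, 312, 192 and 198 TPM earlier, a change of -1.36 ± 0.26 (log2, SE, adjusted p = 0.0024), with overlapping groups. In the TCA cycle 3 of 24 fell (Idh2, Suclg2 and Idh3a), or 12.5%, and none rose. Idh2, the mitochondrial isocitrate dehydrogenase gene, was at 21.3, 23.1, 15.2 and 6.23 TPM late, against 59.8, 34, 35.7 and 25.8 TPM earlier, a change of -1.26 ± 0.30 (log2, SE, adjusted p = 0.0094), and its call ended without replicate 2 of 12 h (adjusted p = 0.0508). Hadh and Etfb of fatty acid oxidation changed by -0.99 ± 0.17 (log2, SE, adjusted p = 0.0011) and -0.83 ± 0.14 (log2, SE, adjusted p = 9.0e-04).

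Of the 2318 genes without a 2-fold response 150 rose and 120 fell, against 236 and 214 of all 3147 genes, so these shares are no higher than those over all genes. Some of the largest rises were among them. Gys1, the muscle-type glycogen synthase gene, was at 24.6, 57.4, 97 and 81.9 TPM late, against 10.4, 21.6, 10.7 and 8.72 TPM earlier, and 23.9 to 46.9 TPM in mock cells, a change of 2.18 ± 0.32 (log2, SE, adjusted p = 2.1e-04). Hist1h1c was at 208, 140, 312 and 259 TPM late, against 40.3, 43.9, 69.2 and 66.8 TPM earlier, a change of 2.02 ± 0.16 (log2, SE, adjusted p = 6.8e-07). Gngt2, a G protein gamma subunit, changed by 1.83 ± 0.25 (log2, SE, adjusted p = 1.3e-04), and Abi3, an adaptor of the actin-nucleating WAVE complex, by 1.59 ± 0.21 (log2, SE, adjusted p = 1.2e-04). In these 4 genes both LPS libraries of 4 h were below all 8 mock libraries and both of 12 h above them. Altogether 11 genes were called below mock at 4-6 h and above it at 9-12 h, and 0 the other way (limma). They include Gys1, Gngt2, Abi3, Hsph1, Srxn1, Tpi1 and the nuclear exporter gene Xpo1. This count rests on the scaling: after median-ratio rescaling 15 genes crossed in that direction, 3 of them among the 11, and 2 the other way.

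A few cytosolic chaperone genes rose late. Hspa8, the constitutive Hsp70 gene, was at 1777, 1035, 2718 and 1910.2 TPM late, against 553, 449, 614 and 851 TPM earlier, and 945 to 1606 TPM in mock cells. Its late libraries were all above the earlier ones, and the change was 1.55 ± 0.27 (log2, SE, adjusted p = 0.0011). Hsph1, its nucleotide exchange factor Hsp105, was at 46.9, 42.4, 78.3 and 64 TPM late, against 11.3, 11, 13.5 and 21.4 TPM earlier, a change of 1.95 ± 0.19 (log2, SE, adjusted p = 8.0e-06). The heat-inducible pair Hspa1b and Hspa1a, which are near-identical and share 1 row, was at 168, 32.6, 269.7 and 68.6 TPM late, against 35.3, 6.68, 27.3 and 25 TPM earlier. Its change of 2.26 did not pass the test (limma, adjusted p = 0.14), with replicate 1 above replicate 2 at each hour. Within each replicate number both late values of this row were above both earlier ones, and the fit had no replicate term. In the whole list of 38 heat shock proteins and chaperonins 3 rose and 4 fell (7.89% and 10.5%, against 7.5% and 6.8% of all genes), and the median change was 0.03. Hspa5, the endoplasmic reticulum chaperone BiP, was 1 of the 4 that fell. Its change was -0.60, a call that ended without any of 6 libraries (adjusted p up to 0.224): replicate 2 of 4 h, both of 6 h, both of 9 h and replicate 2 of 12 h.

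Glycolysis had the highest median change of the lists with at least 8 members, 0.40 in LPS cells and -0.09 in mock cells. Of its 14 genes 4 rose (28.6%, against 7.5% of all genes) and Aldoc fell by 0.72 on the log2 scale. Without the 12 h libraries the median of the glycolysis list was -0.01 and no gene of it rose, and without replicate 2 of 4 h, either of 6 h or replicate 1 of 12 h 2 rose. Tpi1, the triose phosphate isomerase gene, was at 518, 356, 1179.8 and 847 TPM late, against 413, 349, 349 and 339 TPM earlier, a change of 0.86 ± 0.14 (log2, SE, adjusted p = 6.4e-04), with its 12 h libraries far above those of 9 h. Pgam1 was at 1084, 819.9, 1712 and 1278 TPM late, against 830.4, 628, 832 and 643 TPM earlier, a change of 0.70 ± 0.16 (log2, SE, adjusted p = 0.0082). Ldha, which makes lactate, was at 1651, 1114, 2705 and 1899 TPM late, against 1267, 949, 1225 and 955 TPM earlier, a change of 0.69 ± 0.21 (log2, SE, adjusted p = 0.04), and Pfkl, a phosphofructokinase gene, changed by 1.29 ± 0.37 (log2, SE, adjusted p = 0.029). The calls of Ldha and Pfkl each ended without any of 5 libraries, replicate 2 of 4 h, both of 6 h and replicate 1 of 9 h and of 12 h, with adjusted p up to 0.153 and 0.126. The list's median LPS minus mock difference was -0.25, -0.11, -0.62, -0.35, -0.28 and 0.44 at 1, 2, 4, 6, 9 and 12 h in that order.

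Of 29 oxidative stress genes 4 rose and 2 fell (13.8% and 6.9%, against 7.5% and 6.8% of all genes), with a median of 0.32 in LPS cells and 0.00 in mock cells. Gclm, the modifier subunit of the enzyme that starts glutathione synthesis, was at 129, 123, 212 and 195 TPM late, against 89.8, 68.8, 80.9 and 47.2 TPM earlier, and 146 to 227 TPM in mock cells, a change of 1.19 ± 0.16 (log2, SE, adjusted p = 1.4e-04). Srxn1, which repairs overoxidised peroxiredoxins, was at 176, 107, 328 and 219.9 TPM late, against 147, 101, 99.3 and 70.8 TPM earlier, a change of 0.92 ± 0.20 (log2, SE, adjusted p = 0.0059). All 4 earlier LPS libraries of Gclm were below all mock libraries. Sqstm1 and the glutathione reductase gene Gsr were the other 2 that rose, and Blvra and Taldo1 fell.

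Of 51 lysosomal genes 9 rose and 1 fell, or 17.6% and 1.96%, against 7.5% and 6.8% of all genes. The median change was 0.14, and 15 had a change below 0. The rises in the lysosome list numbered 5 without replicate 2 of 4 h, 4 without replicate 2 of 6 h or replicate 1 of 12 h, and 2 in the fit to the 8 LPS libraries alone. Npc1 was at 56.2, 69.2, 69.6 and 69.1 TPM late, against 29, 34.4, 27.4 and 31.8 TPM earlier, a change of 1.08 ± 0.14 (log2, SE, adjusted p = 9.1e-05). Gla, the alpha-galactosidase gene, was at 82.2, 77.2, 112 and 93.8 TPM late, against 45.7, 48.4, 51.4 and 57.7 TPM earlier, a change of 0.83 ± 0.12 (log2, SE, adjusted p = 2.5e-04). Other rises included those of the hydrolase genes Acp2, Idua, Ctsz, Neu1 and Glb1 and the proton pump gene Atp6v1c1, and the fall was in the pump gene Atp6v0a1. The call of Acp2 ended without any of 6 libraries (adjusted p up to 0.163): replicate 1 of 4 h, both of 6 h, replicate 2 of 9 h and both of 12 h. The median LPS minus mock difference of the list was -0.34 at 9-12 h and -0.52 at 4-6 h, against -0.42 and -0.45 for all genes.

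Arg1, which hydrolyses arginine, rose, with its highest values at 12 h. It was at 15.2, 10.9, 81.1 and 58 TPM late, against 11.5, 11.6, 8.24 and 6.99 TPM earlier, and 5.80 to 33.8 TPM in mock cells, so the 9 h libraries lay near the earlier ones and the 12 h libraries well above. The change was 1.58 ± 0.42 (log2, SE, adjusted p = 0.017) and its difference from the mock change 2.24 ± 0.59 (SE, adjusted p = 0.04). The call ended without replicate 2 of 6 h (adjusted p = 0.0586), replicate 1 of 9 h (adjusted p = 0.0535) or replicate 1 of 12 h (adjusted p = 0.064). Selenbp1 had the same form, with 5.57, 5.21, 48.3 and 23.1 TPM late, against 4.96, 4.06, 2.88 and 2.62 TPM earlier, and Ero1l, the endoplasmic reticulum oxidase gene, was at 60.5, 38.6, 298 and 117 TPM late, against 41.8, 34.9, 41.2 and 27.4 TPM earlier, a change of 1.39 ± 0.33 (log2, SE, adjusted p = 0.0089) and a call that ended without replicate 1 of 12 h (adjusted p = 0.0526).

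In several large lists most members had a change below 0. Of 70 cytosolic ribosomal protein genes 67 were lower at 9-12 h, with a median of -0.30 in LPS cells and 0.10 in mock cells, and 5 passed the test, all falls (7.14%, against 6.8% of all genes). Of 56 oxidative phosphorylation genes 50 were lower, with a median of -0.27 in LPS cells and 0.11 in mock cells, and 2 fell (3.57%). The list of spliceosome and hnRNP proteins had 7 falls among 61 genes (11.5%) and a median of -0.25, and translation factors had 4 among 41 (9.76%) and -0.23. No gene of these 4 lists rose. The falls among cytosolic ribosomal proteins numbered 10 without replicate 1 of 9 h, 0 without replicate 1 of 4 h or either of 6 h, 1 without replicate 2 of 4 h and 2 without replicate 1 of 12 h. Those among spliceosome and hnRNP proteins numbered 4 without any 1 library of 4 h or 6 h and 3 without replicate 1 of 12 h. The fit to the 8 LPS libraries alone left none in these 4 lists. After quantile normalization the medians were -0.17 for ribosomal proteins and -0.19 for oxidative phosphorylation, against -0.01 for all genes. Members of such a list share libraries and are not independent, so the counts below 0 are descriptions. The constitutive proteasome did not lean either way, with a median of 0.03 and 0 calls among 33 genes (limma).

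**Figure D3:**
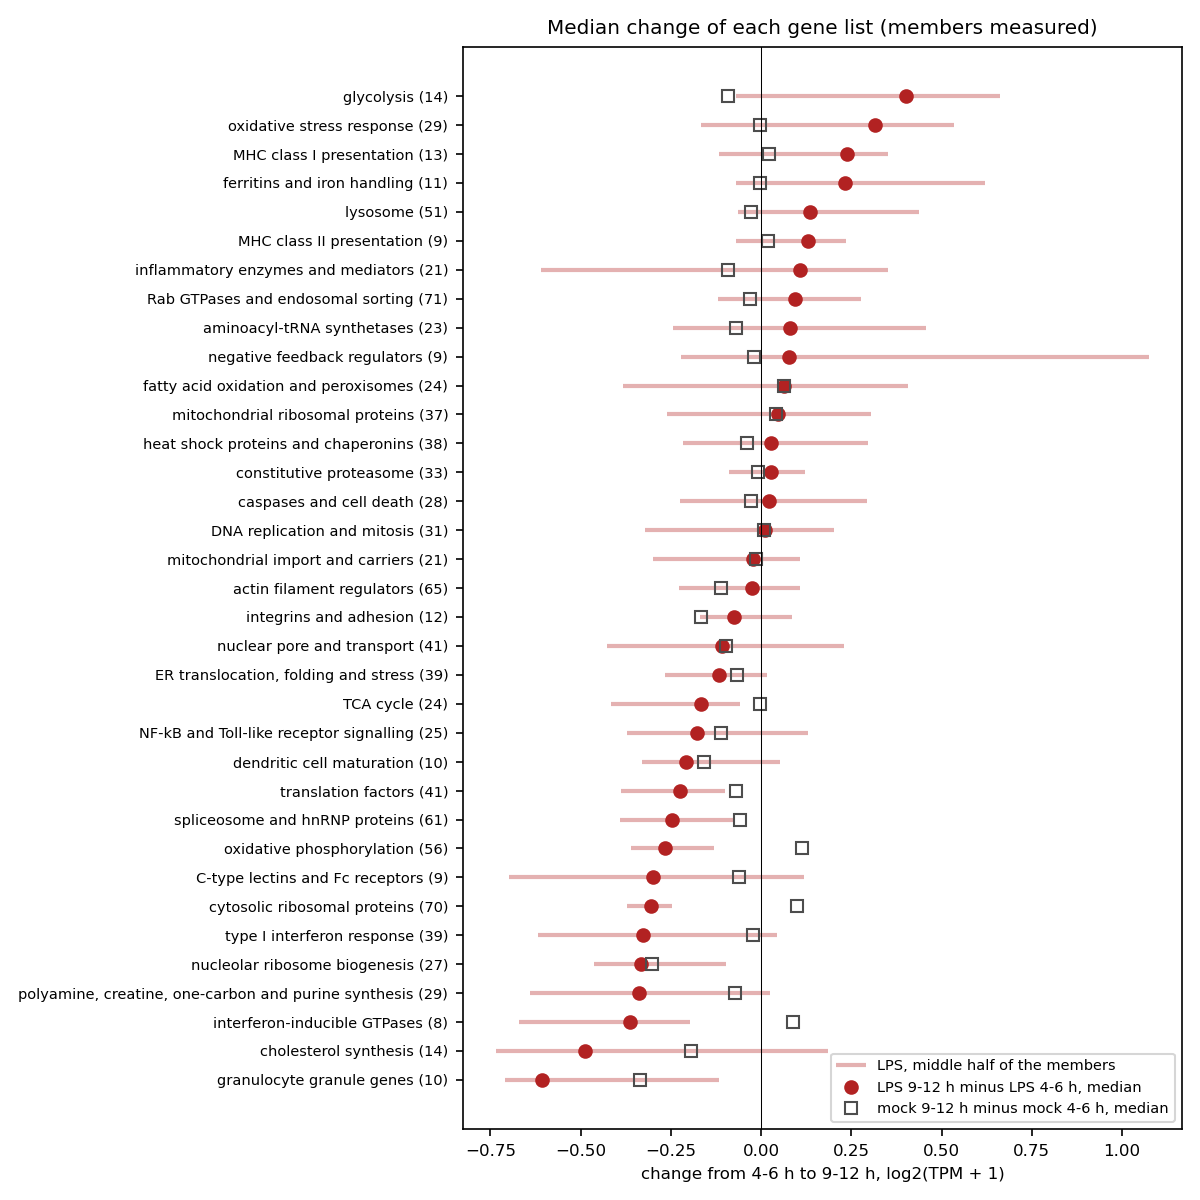
Median change from 4-6 h to 9-12 h, in log2(TPM + 1), of each gene list with at least 8 measured members, for LPS cells (filled circles, with bars from the first to the third quartile of the members) and mock cells (open squares). Glycolysis is highest at 0.40 and granulocyte granule genes are lowest at -0.61 in LPS cells, and the mock medians lie between -0.34 and 0.11.

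Granule genes of granulocytes had the lowest median of any list with at least 8 members, -0.61 in LPS cells and -0.34 in mock cells, and 0 of 10 passed the test in limma. S100a9 was at 692, 775, 468 and 404 TPM late, against 1839.7, 1209, 1135 and 880.3 TPM earlier, with no overlap and an adjusted p of 0.066. Mock cells held 1343 to 4588 TPM of it.

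**Figure D4:**
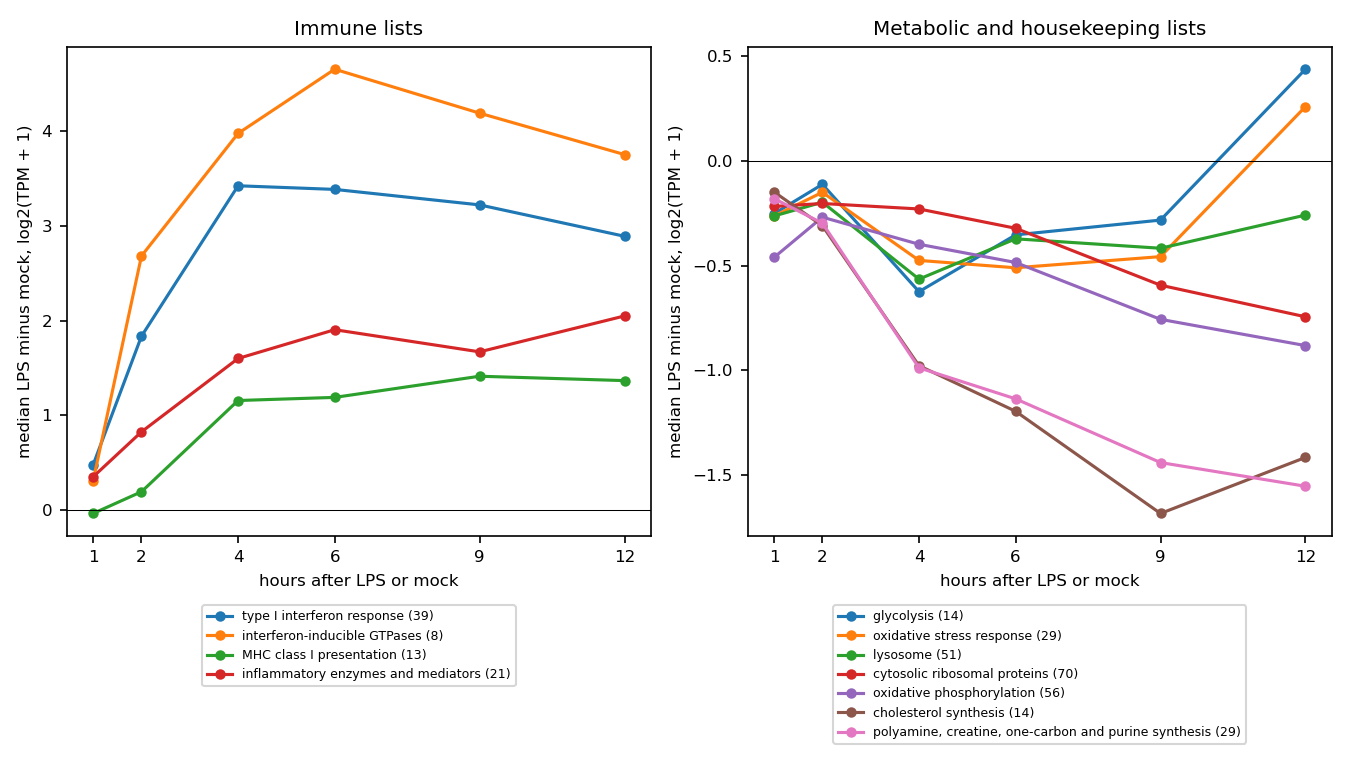
Median LPS minus mock difference in log2(TPM + 1) at 1, 2, 4, 6, 9 and 12 h for 4 immune lists (left) and 7 metabolic and housekeeping lists (right), with the members measured in brackets. The interferon response list is at 2.89 at 12 h after 3.42 at 4 h, while glycolysis reaches 0.44 at 12 h after -0.62 at 4 h; zero on this axis depends on the scaling.

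By the hour of the highest LPS mean, 106 of the 242 induced genes peaked at 6 h and 60 at 12 h, with 4 at 1 h, 14 at 2 h, 41 at 4 h and 17 at 9 h. The 25 waned genes peaked at 6 h in 14 cases, at 4 h in 7, at 2 h in 3 and at 1 h in 1. That class was drawn by a fall from 4-6 h to 9-12 h, which all but excludes a peak at 9 h or 12 h. The 587 repressed genes were lowest at 6 h in 186 cases and at 12 h in 177, against 110 at 4 h and 106 at 9 h. Neighbouring hours of a gene often do not differ beyond their spread, so these hours describe means.

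**Figure D5:**
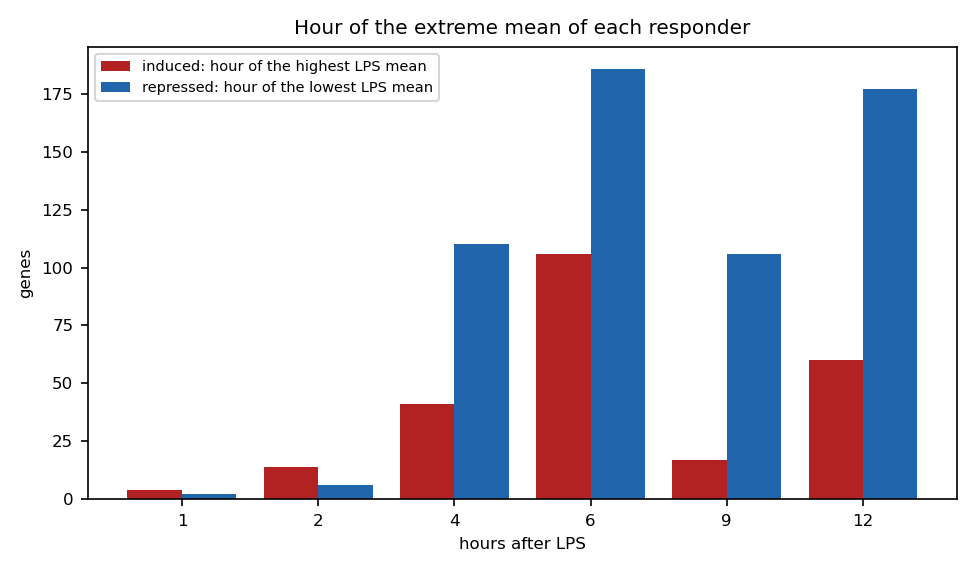
Number of induced genes by the hour of their highest LPS mean (red bars) and of repressed genes by the hour of their lowest LPS mean (blue bars). Peaks of induced genes are most frequent at 6 h with 106 and next at 12 h with 60.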

How the data were processed

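Poly(A) RNA of the dendritic cells was sequenced as strand-specific libraries of paired reads, per the labels' protocols. The deposited TPM were made by the authors with RSEM 1.2.3 and Bowtie 0.12.7 on the mm9 build, per the submitters' processing notes. TPM hold no read depth, so depth is unknown and no counting interval can be given. Of 26 RNA libraries in 13 groups of 2, 363 of 3147 rows carry several gene names and were kept whole. The 0 h libraries entered the fit, and so the SE and p-values, but their mean is in none of the differences given. Their mean was also among the hours searched for the highest and lowest LPS mean. Repeat columns of 0 h and ribosome profiling were not used.

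Values were taken as log2(TPM + 1). A linear model of the deposited values of all 13 groups was made in limma (version 3.58.1, under R 4.3.3; group means, moderated by a mean-variance trend, 13 residual degrees of freedom), and p-values were adjusted over 3147 genes by the Benjamini-Hochberg method at 0.05. The fit had no replicate term. A gene had to reach 1 TPM in 2 libraries, which all rows did. GC content and length were matched for 99.27% of rows. Promoters came from RefSeq's table of GRCm38.p6, matched to 2597 rows by symbol. Alternatives were other added constants, filters and scalings, a replicate block, left-out libraries and hours, and, chosen after seeing the data, removal of GC and length trends. Scripts were tested on simulated data.

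The genes, the lists and the comparison were chosen with earlier results of these data known. Genes named are the 12 largest rises and 12 largest falls with a mean of at least 10 TPM and libraries that do not overlap, the 6 largest each way among induced and among repressed responders, the 6 strongest held responders each way, the most abundant member and the 2 of largest change in each list, the 6 largest differences from mock each way, and a fixed set of LPS genes. A further 41 were chosen after their values were seen, and members that are only listed by name also fall outside the rule. Not every gene under the rule is printed.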

Additional observations from a re-analysis of the deposited data

Results flagged for a closer look

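For 50 named genes the change from 4-6 h to 9-12 h differed between LPS and mock cells by limma's test of the difference itself, adjusted over all genes. Each value is the LPS change minus the mock change on the log2 scale, and a row with several gene names is given with all of them.

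The change was higher in LPS than in mock cells for Fblim1 (2.55), Gys1 (2.43), Arg1 (2.24), Pla2g15;Lpla2 (2.01), Hist1h1c (1.88), Hsph1 (1.83), Ado (1.77), Abi3 (1.75), Gngt2 (1.63), Car2 (1.63), Nup62-il4i1;Il4i1;U89428 (1.62), Sephs2 (1.56), Selenbp1 (1.56), Inpp5d;Ship (1.53) and Synpo (1.41). It was also higher, by less, for Gclm (1.39), Arhgap27 (1.33), Srxn1 (1.31), Ly9 (1.17), Xpo1 (1.16), Acsl1 (1.12), Snx18 (1.11), Npc1 (1.10), Ndrg1 (1.10), Sqstm1 (1.04), Osbpl3 (1.02), Tpi1 (0.92), Gla (0.84), Dnmt1 (0.75) and BC002288;B2m (0.64).

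The change was lower in LPS than in mock cells for Serpinb2 (-2.88), Clec10a (-1.90), Mrc1 (-1.74), Alox5 (-1.64), Sap30 (-1.50), Ckb (-1.43), 11-Sep (-1.41), Cyp51 (-1.36), Tra2a;AK076606;mAWMS1 (-1.32) and C5ar1 (-1.29). It was also lower, by less, for Ifih1 (-1.14), Lnp;mKIAA1715 (-1.13), Hadh (-1.11), H2afz;H2afv (-1.10), Pnpt1;Old35 (-1.10), Etfb (-0.94), Ndufa12 (-0.94), Ptgs1 (-0.93), Cdk1 (-0.76) and Rars (-0.56).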

How the results depend on the processing

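No gene called in the comparison of LPS times was called in the opposite direction in any of the alternatives run. Some other results did change direction. The glycolysis median changed sign without the 12 h libraries. After median-ratio rescaling 2 genes went from above to below mock, against 0 without it. The cause of the shifts given here was not tested. The rises and falls numbered 239 and 217 with 0.1 TPM added, 222 and 205 with 5 TPM added, 233 and 212 with a mean of at least 10 TPM, 239 and 217 with median-ratio scaling, 193 and 127 under quantile normalization, and 23 and 11 against a minimum change of 1.5-fold. They were 68 and 39 in a fit to the 8 LPS libraries alone, which has fewer samples, 106 and 67 without the 4 h libraries, and 56 and 42 without the 12 h libraries. Leaving out 1 LPS library gave 158 to 211 rises and 120 to 185 falls. Genes with a higher or lower change than mock numbered 54 to 85 and 18 to 46 with 1 library left out, and 23 were lower after quantile normalization. The response counts were 462 to 507 above and 1579 to 1682 below mock with 1 library left out, 854 and 889 with median-ratio scaling, and 726 and 1095 under quantile normalization. Calls of 6 h against 4 h were 0 to 11 with 1 library left out, 4 with 5 TPM added and 0 after quantile normalization. Those of 9 h against 6 h were 2 to 14, 14 with median-ratio scaling and 2 under quantile normalization, and those of 12 h against 9 h were 0 to 12 and 3 after quantile normalization.

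With 1 library left out the induced classes held 16 to 26 waned, 112 to 132 held, 12 to 20 grown and 67 to 97 undecided genes, and the repressed classes 46 to 69 recovered, 281 to 345 held, 41 to 74 deepened and 129 to 214 undecided. Median-ratio rescaling gave 47 waned, 204 held induced, 40 recovered, 123 held repressed, 43 deepened and 67 undecided repressed genes. Quantile normalization gave 189 held induced, 31 recovered, 152 held repressed, 41 deepened and 52 undecided repressed genes. With 5 TPM added 60 repressed genes were undecided. Holding within 1.5-fold left 39 induced and 92 repressed genes held, with 159 and 359 undecided. With responders of any size there were 60 waned, 305 held and 33 grown induced genes, and 151 recovered, 1149 held, 127 deepened and 254 undecided repressed genes.

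The libraries share replicate numbers 1 and 2, but the labels do not say what a number stands for. Differences between replicate 1 and 2 correlated across genes at 0.628 to 0.834 between LPS times, and 8 of 8 libraries correlated best with those of their own number, a hint from the data. With a replicate block 401 genes rose and 459 fell, 226 and 197 changed more or less than in mock, and the steps gave 62, 89 and 44 calls in order of time. The block also gave 66 waned, 36 grown and 17 undecided induced genes and 101 recovered, 120 deepened and 42 undecided repressed genes, and 34 falls among the 70 cytosolic ribosomal proteins and 14 among the 56 genes of oxidative phosphorylation.

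Of 105 called genes that are named, 71 kept their call without any 1 LPS library. Without both 12 h libraries 44 of the 105 kept it, without both 4 h libraries 54, and in the fit to the 8 LPS libraries alone 52. Since TPM carry no depth, weakly expressed genes such as Fblim1 and Alox5 in their low libraries have a counting error that cannot be given.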
